A study of Mus musculus with 10 samples.

Results

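The p53 pathway was examined in embryonic mouse lenses with and without Dicer, the enzyme that makes mature microRNAs from their hairpin precursors. The group comprised 33 genes chosen by name: the p53 family itself, the regulators that feed back on p53, and targets of p53 that act in cell death, DNA repair, cell cycle arrest and stress control. Of these, 31 were measured among the 19938 genes of the table, each by its probe set with the highest mean signal, and the other two, Trp53 and Gdf15, were not analysed here. Lenses came from embryos at E13.5. Control embryos were Le-Cre-/-;DicerloxP/loxP and DicerCN embryos were Le-Cre+/-;DicerloxP/loxP, so both groups carried the loxP-flanked Dicer alleles and differed in the Cre transgene. In Le-Cre mice the P0 promoter of Pax6 drives Cre in the surface ectoderm lineage, which gives rise to lens and corneal epithelium, so that vessels, blood cells and retina left on a dissected lens would keep Dicer. Each of the 5 control and 5 DicerCN arrays held RNA from both lenses of 1 embryo, and no control carried Cre alone.

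The protein p53, encoded by Trp53, is a transcription factor that is kept scarce by the ubiquitin ligase Mdm2 and its partner Mdm4, and that accumulates when DNA is damaged or growth signals are abnormal. It then induces genes that stop the cell cycle, repair DNA or kill the cell, and it also induces Mdm2, which closes a negative feedback loop. Much of this control acts on the p53 protein, which an RNA array does not measure. In the lens, p53 is known for killing fibre cells that fail to leave the cycle when the retinoblastoma protein is lost.

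A short promoter sequence helps to show what p53 recognises. Its response element is a pair of 10-base half-sites, each with 3 purines, then C, 2 bases that are A or T, then G and 3 pyrimidines. Because that pattern reads the same on both strands, a search of 1 strand covers both. RefSeq promoter windows (assembly GRCm38.p6, 250 bases before to 50 after a start site) were at hand for 23 of the 31 members, and a half-site lay in at least 1 window of 10 of them (43.5%), against 9.55% of 27025 genes with a window. Only exact matches to the pattern were counted, for half-sites and for pairs. No member window held a pair of exact half-sites with a spacer of up to 13 bases, which 0.0731% of all 32851 windows did. Because such pairs are so rare, their absence from the 31 member windows says little. Pairs with a mismatch were not searched for. In Ccng1 the 10 bases directly before the half-site differ from the pattern at 1 base. The bases before the start site are shown for a pair of members whose transcripts rose in DicerCN lenses, Ccng1 and Ddit4l, and for a pair that did not, Mdm2 and Aen, with the half-site in capitals. They come from chr11:40755287-40755536 (minus strand), chr3:137623422-137623671 (plus strand), chr10:117710759-117711008 (minus strand) and chr7:78895808-78896057 (plus strand), and are written 5′ to 3′ along the gene.
Ccng1: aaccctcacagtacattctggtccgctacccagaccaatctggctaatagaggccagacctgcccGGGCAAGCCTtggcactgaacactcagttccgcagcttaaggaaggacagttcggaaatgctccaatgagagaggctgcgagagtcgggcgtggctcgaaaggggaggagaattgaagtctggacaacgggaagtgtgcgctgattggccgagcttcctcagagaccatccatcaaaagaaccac
Ddit4l: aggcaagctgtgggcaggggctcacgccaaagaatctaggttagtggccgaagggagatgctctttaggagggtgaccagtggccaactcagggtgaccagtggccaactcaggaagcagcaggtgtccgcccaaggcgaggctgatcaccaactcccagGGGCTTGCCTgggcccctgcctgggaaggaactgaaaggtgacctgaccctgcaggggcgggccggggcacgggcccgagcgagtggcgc
Mdm2: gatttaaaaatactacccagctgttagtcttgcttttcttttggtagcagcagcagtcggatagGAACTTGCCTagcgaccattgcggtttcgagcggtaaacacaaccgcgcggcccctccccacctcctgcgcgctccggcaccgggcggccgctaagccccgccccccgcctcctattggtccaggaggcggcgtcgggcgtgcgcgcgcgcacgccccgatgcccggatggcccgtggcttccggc
Aen: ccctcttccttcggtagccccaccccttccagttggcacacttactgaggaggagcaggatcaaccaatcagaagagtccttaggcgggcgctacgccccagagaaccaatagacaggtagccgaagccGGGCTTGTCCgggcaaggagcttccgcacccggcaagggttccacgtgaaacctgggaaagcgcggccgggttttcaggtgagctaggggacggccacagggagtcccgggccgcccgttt
The half-sites begin 185, 90, 186 and 121 bases before the start site in Ccng1, Ddit4l, Mdm2 and Aen. Aen has another start site, and the same half-site begins 10 bases after that one. Half-sites were found in 4 of the 7 risen members that had a window (57.1%) and in 6 of 16 that did not pass (37.5%). The difference between these shares was not tested. Trp53inp1 and Tnfrsf10b, which rose, had no window. In Gtse1, Polk and Sesn1 the match lay in 1 window and not in the other, and that of Gtse1 began 9 bases after the start site. A match is a description of letters and not of binding, and response elements of p53 also lie in introns, outside these windows.

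Genes of this pathway were compared between DicerCN and control lenses on the deposited log2 signals. In DicerCN lenses 9 of the 31 members rose and 0 fell by limma at an adjusted p under 0.05, against 2.56% of all genes that rose and 3.97% that fell. At an unadjusted p under 0.05, 10 members were higher and 1, the exonuclease gene Aen, was lower, against 8.36% and 10.2% of all genes. The risen members were Trp53inp1, Eda2r, Tnfrsf10b, Ddit4l, Sesn2, Ccng1, Phlda3, Gtse1 and Polk, with rises from 1.24-fold to 2.79-fold. All 5 DicerCN arrays lay above all 5 control arrays in 7 members, against 2.96% of all genes, and the opposite held in 0 members, against 4.42%. Over the 31 members the median log2 change was 0.13, against -0.001 over all genes. The members were chosen with earlier results from these arrays known, among them the rises of Trp53inp1, Tnfrsf10b and Ddit4l, so the count is a description of the group.

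**Figure D1:**
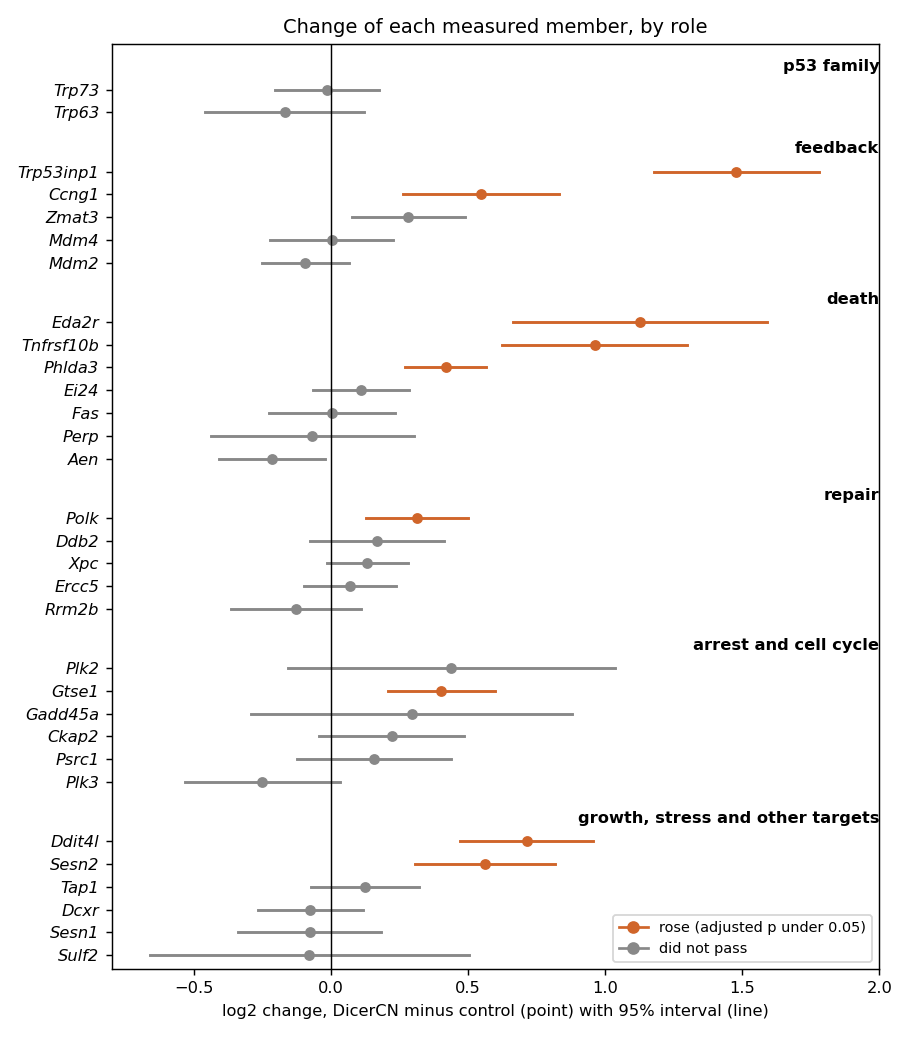
Log2 change of each of the 31 measured members (DicerCN minus control, 5 arrays each), ordered by role; points are the limma estimate, lines its 95% interval, and orange marks an adjusted p under 0.05. The 9 risen members are spread over the feedback, death, repair, arrest and stress groups, and no member is called lower.

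Dissected lenses carry other cells, and 2 arrays stood apart: control replicate 4 had a mean striated muscle marker level of 9.39 on the log2 scale against 5.88 to 6.22 in the other controls, and DicerCN replicate 5 had a neural retina level of 8.98 against 7.06 to 7.87 in the other DicerCN arrays. Without both arrays 8 members rose, 7 of them among the 9. Lens markers were high on all arrays (mean log2 level of 19 markers 12.14 ± 0.06 for control and 11.81 ± 0.20 for DicerCN arrays, SD, n = 5 per group). Their level was 0.33 lower in DicerCN lenses, with every DicerCN array (11.52 to 12.05) below every control (12.07 to 12.22; exact 2-sided permutation p = 0.00794, the smallest possible), and the part of this shift in the results below was not tested. Of the 19 lens markers 16 were lower and 3 higher, and by limma 3 fell and 0 rose. Their median change was -0.12, and 1 of them stood at -3.36, which pulls the mean down. The 16 neural retina markers measured were all higher in DicerCN lenses and 0 passed the test, with control levels of 6.99 to 7.56, and some of them, such as Sox2, are also expressed in early lens. The 19 macrophage markers measured had a mean level of 6.15 to 6.74 in control and 6.53 to 7.28 in DicerCN lenses (exact 2-sided permutation p = 0.0397), 18 of them were higher and 3 passed the test. Csf1r, the receptor that macrophages need to survive, rose by 0.86 and the chemokine receptor gene Cx3cr1 by 0.73. F13a1, also among the 3 brightest macrophage markers, stood at 0.36 and did not pass (limma adjusted p = 0.480). Of 15 markers of mesenchyme and vessels around the eye (periocular), 14 were higher, 1 rose and 1 fell by limma. Their mean level was 0.33 higher in DicerCN lenses (exact 2-sided permutation p = 0.278). All 7 erythroid markers were higher and 0 passed, with a mean level 0.34 higher (exact 2-sided permutation p = 0.135). In such bulk samples fewer cells of a type and less RNA per cell cannot be told apart. Dicer1 itself was 0.13 higher in DicerCN lenses (SE 0.08, limma adjusted p = 0.472), and since a probe set for the whole transcript may lie outside the flanked exons, it does not check the labels.

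Trp53inp1, among the genes that feed back on p53, rose most. It encodes a nuclear stress protein that p53 induces and that in turn helps the kinase-driven activation of p53 and promotes autophagy and death. Its log2 signals were 8.40, 8.60, 8.74, 8.88 and 8.67 in control replicates 1 to 5. In the DicerCN group, in the same order of replicates, they were 10.49, 10.29, 9.96, 10.23 and 9.71. Both groups were far apart, with the lowest DicerCN array above the highest control. It rose 2.79-fold (log2 change 1.48, SE 0.14, limma adjusted p = 0.000144), the rise ranked 12 of all 19938 genes, and passed the test under each of the 19 alternative settings tried, at adjusted p between 4.9e-05 and 0.00873. Averaging of probe sets, among these settings, could not change its values, since it had 1 probe set.

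Ccng1 encodes cyclin G1, a p53 target that recruits a phosphatase to Mdm2 and so restrains p53. Control replicates 1 to 5 gave 10.04, 10.23, 10.22, 9.74 and 9.82, and DicerCN replicates 10.65, 10.79, 10.55, 10.65 and 10.15. DicerCN replicates 1 to 4 lay above every control, while DicerCN replicate 5, the array with high retina markers, lay inside the control range. Ccng1 rose 1.46-fold (log2 change 0.55, SE 0.13, limma adjusted p = 0.0270), a call that held in 3 of the 10 fits that left out 1 array (adjusted p 0.00689 to 0.0734). Leaving out control replicate 2 or 3 or DicerCN replicate 5 kept it, and leaving out any other array ended it.

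Mdm2, the ligase that degrades p53 and the classical reporter of its activity, stayed close to the control level. Its signals were 8.51, 8.52, 8.53, 8.54 and 8.58 in control and 8.50, 8.59, 8.26, 8.44 and 8.42 in DicerCN lenses. Control values were unusually tight (SD 0.03, n = 5), 4 of the DicerCN arrays were below all of them and DicerCN replicate 2 was above all. The log2 change was -0.09 with a 95% interval of -0.25 to 0.06 (limma adjusted p = 0.566), so a rise of the size of Ccng1's lies outside the interval. Mdm4, which holds p53 inactive, stood at 0.001 (95% interval -0.22 to 0.22, adjusted p = 0.997), with DicerCN arrays spread more widely (SD 0.23) than controls (SD 0.05).

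Zmat3, an RNA-binding zinc finger protein induced by p53, had signals of 7.09, 7.09, 7.20, 7.12 and 6.99 in control and 7.35, 7.55, 7.54, 7.40 and 7.06 in DicerCN replicates 1 to 5. Again only DicerCN replicate 5 overlapped the controls. The change of 0.28 (SE 0.10) did not pass (limma adjusted p = 0.109), and without DicerCN replicate 5 it did (0.0197). With the neural retina level as a covariate Zmat3 stood at 0.37 (adjusted p = 0.0481).

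Of the relatives of p53, Trp63, which maintains surface epithelia, stood at -0.17 (95% interval -0.46 to 0.12) and Trp73 at -0.02 (-0.21 to 0.18). Neither passed (limma adjusted p = 0.572 and 0.957). Control replicate 4, the array with muscle markers, had the highest Trp63 signal, 6.77 against 6.01 to 6.26 in the other controls.

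**Figure D2:**
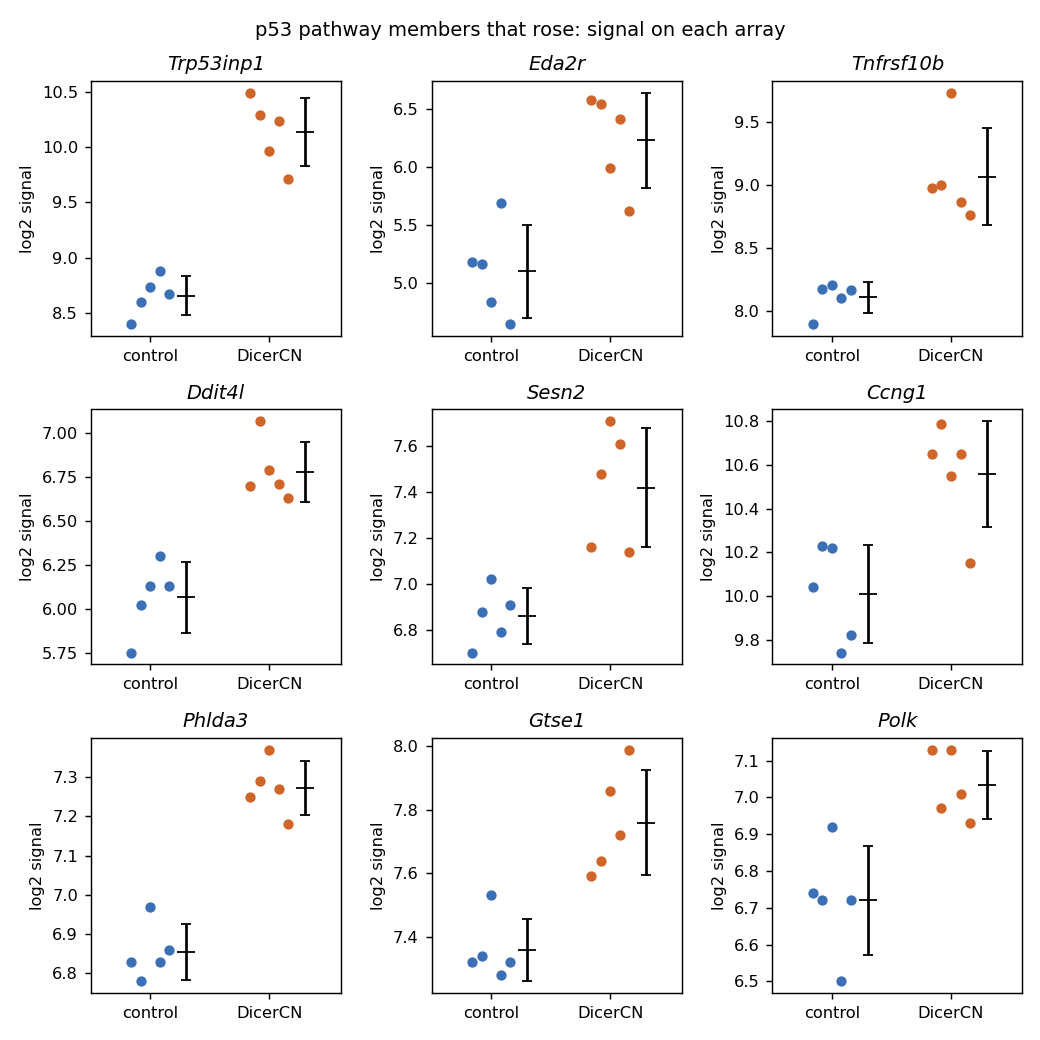
Log2 signal of the 9 risen members on each array, with control arrays in blue and DicerCN arrays in orange (5 each, replicates 1 to 5 from left to right), and the group mean and SD as a bar; axes differ between genes. Eda2r and Ccng1 are the only 2 of the 9 in which a DicerCN array, replicate 5, overlaps the controls.

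Among the death genes the receptors Tnfrsf10b and Eda2r and the survival-kinase inhibitor Phlda3 rose, and the others, with the receptor Fas among them, did not. Tnfrsf10b encodes the only mouse death receptor for the ligand TRAIL. It had signals of 7.89, 8.17, 8.20, 8.10 and 8.16 in control and 8.97, 9.0, 9.73, 8.86 and 8.76 in DicerCN lenses. Every DicerCN array exceeded every control, and DicerCN replicate 3 stood above the rest. It rose 1.95-fold (log2 change 0.96, SE 0.16, limma adjusted p = 0.00299).

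Eda2r, a receptor of the tumour necrosis factor family that binds ectodysplasin A2 and is induced by p53, gave 5.18, 5.16, 4.83, 5.69 and 4.64 in control and 6.58, 6.54, 5.99, 6.41 and 5.62 in DicerCN lenses. Only DicerCN replicate 5 fell below the highest control, which was replicate 4. Its rise of 2.18-fold (log2 change 1.13, SE 0.21, adjusted p = 0.00777) was measured at low signal, since control lenses lay in the lowest 25% of genes. Phlda3, which competes with Akt for membrane lipids and so dampens survival signalling, had signals of 6.83, 6.78, 6.97, 6.83 and 6.86 in control and 7.25, 7.29, 7.37, 7.27 and 7.18 in DicerCN lenses. Both groups were tight and did not overlap, and Phlda3 rose 1.34-fold (log2 change 0.42, SE 0.07, adjusted p = 0.00320).

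The other 4 death genes did not pass. Fas, the receptor for Fas ligand, was dim and stood at 0.002 (95% interval -0.23 to 0.23, limma adjusted p = 0.994), and the interval ends below the rise of Tnfrsf10b. Ei24, an endoplasmic reticulum protein, stood at 0.11 (adjusted p = 0.545). Aen, an exonuclease that cuts DNA in dying cells, was lower at 8.31, 8.16, 7.94, 8.0 and 7.92 against 8.30, 8.31, 8.21, 8.18 and 8.40 in control (change -0.22, SE 0.09, adjusted p = 0.206). DicerCN replicates 2 to 5 lay below all controls, and replicate 1 did not. Perp, a desmosomal membrane protein needed in epithelia, had DicerCN signals of 6.77, 6.85, 6.81, 6.57 and 5.77 against 6.56 to 6.70 in control. Its change of -0.07 (adjusted p = 0.895) hid opposite arrays, with replicates 1 to 3 above all controls and replicate 5 below, and it was 0.13 without replicate 5.

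Of the 5 DNA repair genes, Polk, a polymerase that copies across damaged bases, rose 1.24-fold. Its signals were 6.74, 6.72, 6.92, 6.50 and 6.72 in control and 7.13, 6.97, 7.13, 7.01 and 6.93 in DicerCN lenses. The lowest DicerCN array exceeded the highest control by little. The change of 0.31 (SE 0.09, limma adjusted p = 0.0485) is at the edge of the threshold, and in 9 of the 10 fits without 1 array it no longer passed, all except that without control replicate 3 (adjusted p 0.0318 to 0.103 over the 10). Replicate blocking (the replicate number as a term of the fit) and an intensity trend in the variance ended it too.

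The genes of nucleotide excision repair were not called: Ddb2 and Xpc, which find ultraviolet lesions, stood at 0.17 (95% interval -0.08 to 0.41) and 0.13 (-0.02 to 0.28), and Ercc5, which cuts the damaged strand, at 0.07 (-0.10 to 0.24). Rrm2b, the p53-induced subunit of ribonucleotide reductase, stood at -0.13 (-0.36 to 0.11). Their limma adjusted p ran from 0.338 for Xpc to 0.717 for Ercc5. For Xpc, Ercc5 and Rrm2b the upper bounds lie below the rise of Polk.

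Among the 6 genes of arrest and the cell cycle, Gtse1 rose. It encodes a microtubule-associated protein of G2 and mitosis that carries p53 out of the nucleus and limits its activity. Signals were 7.32, 7.34, 7.53, 7.28 and 7.32 in control and 7.59, 7.64, 7.86, 7.72 and 7.99 in DicerCN lenses. No DicerCN array overlapped the controls, and the array with high retina markers, DicerCN replicate 5, was the highest. Gtse1 rose 1.32-fold (log2 change 0.40, SE 0.09, limma adjusted p = 0.0189). With the neural retina level as a covariate its change was 0.31 and no longer passed (adjusted p = 0.0762), nor did it without control replicate 1 (0.0559).

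The arrest gene Gadd45a, which binds PCNA and activates stress kinases, had control signals of 7.69, 7.87, 7.82, 7.65 and 7.77. DicerCN signals were 7.63, 7.69, 7.39, 8.38 and 9.19. DicerCN replicates 4 and 5, which had the highest retina levels (7.87 and 8.98), were above all controls, and the other three were not. Its mean change was 0.29 (SE 0.27, limma adjusted p = 0.645). With the retina level as a covariate the change was -0.17 (SE 0.14, adjusted p = 0.635), and with the macrophage level it was 0.72 (SE 0.34, adjusted p = 0.385). The cause of the spread between arrays was not tested.

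The polo-like kinases differed in sign and neither passed. Plk2, a stress-induced kinase of centriole duplication, gave 7.45, 7.99, 8.35, 8.03 and 7.22 in control and 8.88, 7.57, 8.62, 8.53 and 7.63 in DicerCN lenses (change 0.44, SE 0.28, limma adjusted p = 0.451). Arrays 1, 3 and 4 of the DicerCN group, which had the highest macrophage levels of all arrays (7.22, 7.28 and 7.01), were above all controls. The same arrays had the highest periocular mesenchyme and vessel levels of the DicerCN group (8.32, 8.81 and 8.24). With the macrophage level as a covariate the Plk2 change was -0.40 (SE 0.18, adjusted p = 0.357), and the cause was not tested. Plk3, a kinase that phosphorylates p53, stood at -0.25 (95% interval -0.53 to 0.03). Psrc1 and Ckap2, spindle proteins, stood at 0.16 and 0.22 (adjusted p = 0.597 and 0.376), and their highest DicerCN signals came from replicates 4 and 5, as in Gadd45a.

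The genes of growth and stress control held a contrast between paralogues. Sestrins 1 and 2 are p53 targets that sense amino acids or oxidants and inhibit the growth kinase complex mTORC1. Sesn2 had signals of 6.70, 6.88, 7.02, 6.79 and 6.91 in control and 7.16, 7.48, 7.71, 7.61 and 7.14 in DicerCN lenses. It rose 1.48-fold with no overlap (log2 change 0.56, SE 0.12, limma adjusted p = 0.0137). Sesn1 gave 8.40, 8.39, 8.27, 8.33 and 8.22 in control and 8.55, 8.03, 7.89, 8.48 and 8.26 in DicerCN lenses. Its arrays scattered on both sides of the controls, and the change of -0.08 had a 95% interval of -0.34 to 0.18 (adjusted p = 0.811), wholly below the interval of Sesn2 (0.31 to 0.82). The difference between the paralogues was not tested itself.

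Ddit4l, which also inhibits mTORC1, had signals of 5.75, 6.02, 6.13, 6.30 and 6.13 in control and 6.70, 7.07, 6.79, 6.71 and 6.63 in DicerCN lenses. The groups did not overlap. It rose 1.64-fold (log2 change 0.71, SE 0.11, limma adjusted p = 0.00253). The remaining members here were not called: Dcxr, a sugar reductase, stood at -0.08, Tap1, a peptide transporter of antigen presentation, at 0.12, and Sulf2, a sulfatase of heparan sulfate, at -0.08. Sulf2 ranged most, from 8.25 to 9.93 in DicerCN against 8.79 to 9.67 in control lenses.

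**Figure D3:**
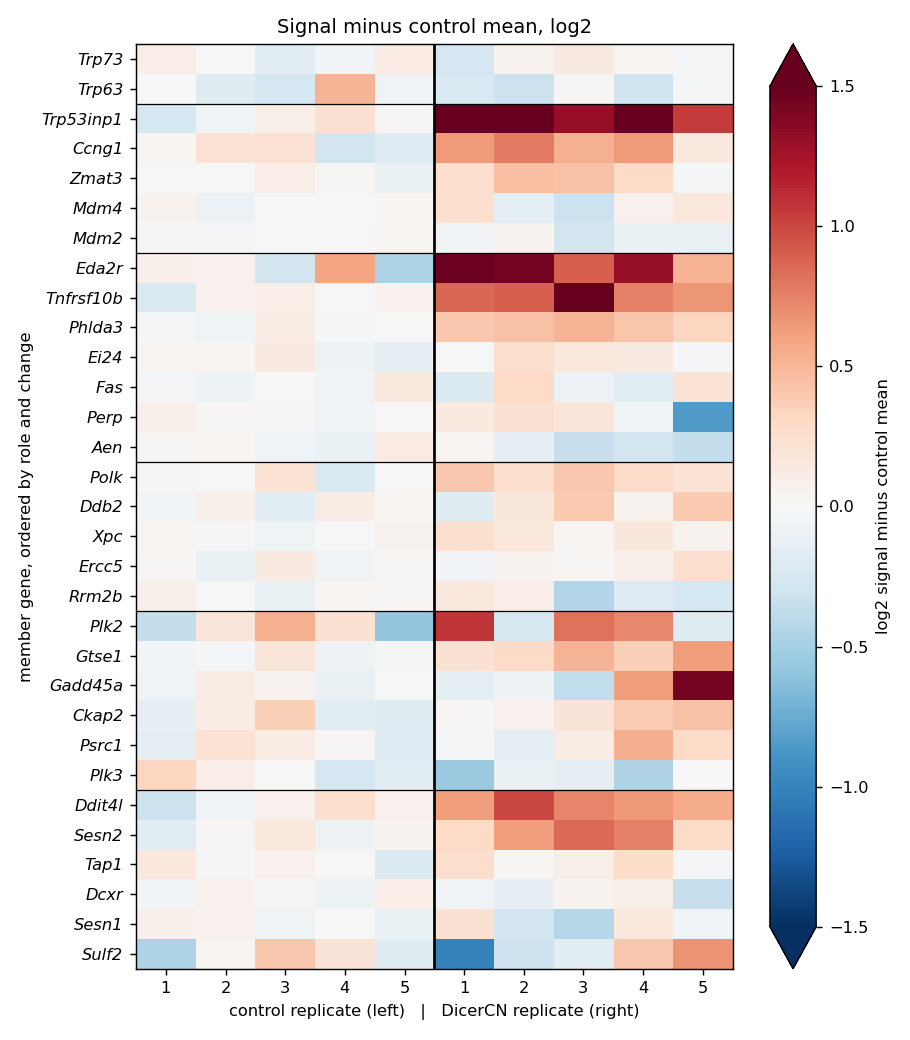
Log2 signal minus the control mean for the 31 measured members (rows, grouped by role with horizontal lines) on each array (columns, control replicates 1 to 5 left of the vertical line and DicerCN replicates 1 to 5 right of it); colours saturate at 1.5. Trp53inp1 and Tnfrsf10b are above all controls on every DicerCN array, Eda2r on DicerCN replicates 1 to 4 and Gadd45a on replicates 4 and 5. Perp is low on replicate 5.

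Members varied more between DicerCN lenses than between controls. The SD was larger in the DicerCN group for 27 of 31 members, against 12901 of all 19938 genes, so most genes shared this. The median SD was 0.11 in control and 0.23 in DicerCN lenses, against 0.13 and 0.17 over all genes. On single DicerCN arrays 15 to 19 members lay above the highest control and 5 to 7 below the lowest, against 19.9% to 24.9% and 23.4% to 26.3% of all genes. All 9 risen members exceeded every control on DicerCN replicates 1 to 4, and 7 of them did on replicate 5, where Ccng1 and Eda2r did not. Because these 9 were called on the same arrays, this describes how evenly they rose and supports nothing further.

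Macrophage levels moved with the groups, and the risen members were refitted with them. With the mean macrophage level as a covariate 1 member, Trp53inp1, passed (log2 change 1.30, SE 0.19, limma adjusted p = 0.00873), and 73 of all genes were higher in place of 511. The other 8 calls were lost. The 9 estimates ran from 0.27 to 1.30, and the median SE over all genes went from 0.099 to 0.135. Tnfrsf10b went from 0.96 to 0.71 (adjusted p = 0.110) and Eda2r from 1.13 to 0.84 (0.188). Ddit4l went from 0.71 to 0.70 (0.0586) and Phlda3 from 0.42 to 0.38 (0.0861). Gtse1 alone among the 9 had a larger estimate, 0.43 in place of 0.40 (0.142). DicerCN replicates 2 and 5 had macrophage levels of 6.53 and 6.60, inside the control range of 6.15 to 6.74. On them Trp53inp1 read 10.29 and 9.71, above the highest control of 8.88. Every DicerCN array lay above all controls for this gene, so the same holds whichever arrays are picked. The cause of its rise was not tested.

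**Figure D4:**
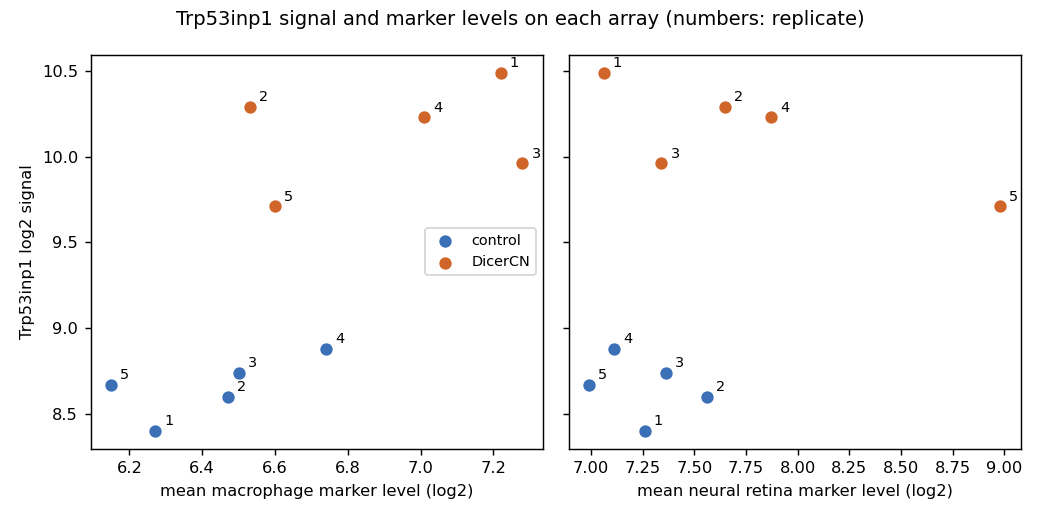
Trp53inp1 log2 signal (vertical axis) against the mean log2 level of macrophage markers (left) and neural retina markers (right) on each array, with control in blue, DicerCN in orange and the replicate number beside each point. DicerCN replicates 2 and 5 have macrophage levels within the control range. Trp53inp1 signals lie above all controls on every DicerCN array, and the cause of this rise was not tested.

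**Figure D5:**
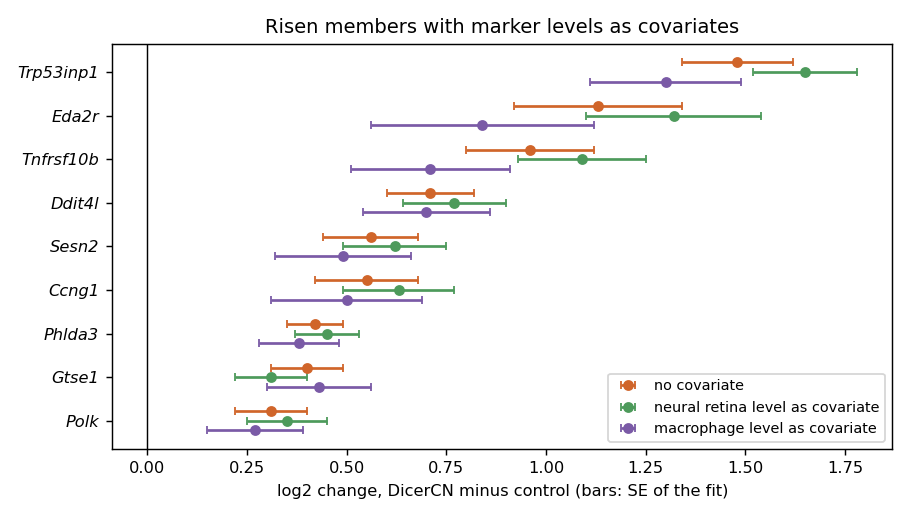
Log2 change of the 9 risen members (DicerCN minus control; bars are the SE of the fit) with no covariate, with the mean neural retina level and with the mean macrophage level as a covariate. All 27 estimates lie above 0, and with the macrophage level Trp53inp1 alone passes the test.

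Other genes of the pathway were taken from a list of regulators and a list of further targets. Of 22 measured kinases and modifiers of p53, 0 rose and 0 fell by limma, with 0 higher and 3 lower at an unadjusted p under 0.05, against 2.56% and 3.97% of all genes at the adjusted and 8.36% and 10.2% at the unadjusted threshold. With so few genes these counts are near the background. Of 38 further targets, 9 rose (23.7%) and 4 fell (10.5%), against the same 2.56% and 3.97% of all genes, with a median change of 0.05. The difference between both lists was not tested.

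Btg2, an antiproliferative cofactor of mRNA deadenylation, rose most, by 1.72 (SE 0.13, limma adjusted p = 4.59e-05). Its signals were 7.43 to 7.92 in control and 9.12 to 9.82 in DicerCN lenses. Slc19a2, a thiamine transporter, rose by 0.82 (adjusted p = 0.000183) and Ddit4, the paralogue of Ddit4l, by 0.74 (0.00314). Both were called along with Epha2, an ephrin receptor (0.46), Apaf1, the caspase activator of the apoptosome (0.37), Pltp, a lipid transfer protein (0.42), and Bbc3, the pro-apoptotic Puma (0.44, adjusted p = 0.0338). The call of Bbc3 held only without control replicate 2 or DicerCN replicate 4 or 5 among the 10 fits that left out 1 array. That of Pltp was lost without control replicate 1, 2 or 3 or without the third or the fourth DicerCN array, and that of Apaf1 without control replicate 1. Kitl (rise of 0.56, limma adjusted p = 0.0296) and Trim35 (0.35, 0.0242) were the remaining risen targets, named after their values were seen. Their calls under the alternative settings were not followed gene by gene. Pmaip1, the pro-apoptotic Noxa, stood at 0.01 (95% interval -0.17 to 0.19).

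The falls were led by Gpx1, glutathione peroxidase, which went from 11.08 ± 0.10 to 10.48 ± 0.15 (SD, n = 5 per group, limma adjusted p = 0.00145). Ak1, adenylate kinase, fell by 0.55 (0.00624) and Cyfip2, a regulator of actin, by 0.38 (0.0189). The fourth was Siva1, a pro-apoptotic protein, named after its value was seen (fell by 0.41, adjusted p = 0.0356). Its call held in 3 of the 10 fits that left out 1 array, those without control replicate 5 or DicerCN replicate 4 or 5, and that of Cyfip2 in all except those without control replicate 1, control replicate 5 and DicerCN replicate 4. With the macrophage level as a covariate 2 of these further genes were higher and 1 lower, and without control replicate 1 there were 4 and 2. Cdkn1a and Bax, central targets in arrest and death, were not analysed here.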

How the data were processed

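RNA was labelled with the Affymetrix whole-transcript assay and hybridised to 1 array per embryo, per the labels' protocols; GCOS is named in the submitters' processing notes. The deposited values were taken as log2 signals from their range (1.91 to 15.24), and array medians of 6.54 to 6.56 show scaling between arrays before deposit. Summarisation and genome build are not given in the sources used here. Precision is limited by there being 5 arrays in a group.

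Of 35557 probe sets, 21789 with 1 symbol in the platform annotation were kept (1621 had several, 12147 none), and the brightest over all arrays stood for each of 19938 genes. Each measured member had 1. Groups were compared with limma (3.58.1, R 4.3.3, lmFit and eBayes, 2-sided) over all genes with Benjamini-Hochberg adjustment, and the script was tested on simulated data. "Rose" and "fell" mean an adjusted p under 0.05, changes are DicerCN minus control, and intervals are those of the fit. Marker levels are means of log2 signals, compared by exact permutation over 252 splits.

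Alternatives were quantile normalization, averaged probe sets, leaving out the dimmest 25% of genes, a replicate block, an intensity trend, array weights, macrophage or retina levels as a covariate, and leaving out arrays. Members and lists were chosen with earlier results of these data known. The rule names all members, Cdkn1a, Btg2, Bax, Bbc3, Pmaip1, the 8 other pathway genes of smallest p, up to 3 brightest markers of a list, and Dicer1. Siva1, Kitl and Trim35 were named after their values were seen.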

Additional observations from a re-analysis of the deposited data

Results flagged for a closer look

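Chance marks about 1 in 20 groups by the test of a single far sample used here (gap to the nearest array over the group's range, above 0.71 for 5 arrays), and 4 of 88 groups were marked. DicerCN replicate 3 had a Tnfrsf10b signal of 9.73, with the other DicerCN arrays at 8.76 to 9.0. DicerCN replicate 5 had a Perp signal of 5.77 against 6.57 to 6.85 in the others. Control replicate 3 had a Gtse1 signal of 7.53 against 7.28 to 7.34, and a Pmaip1 signal of 5.93 against 6.18 to 6.28.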

How the results depend on the processing

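Under quantile normalization, the mean of probe sets and array weights, 9 members were higher in DicerCN lenses, the same 9 as in the fit reported. Each measured member had 1 probe set, so averaging left its values as they were, and that agreement is no sign of stability. The filter on dim genes gave those 9 too, but Eda2r, dim in control lenses, passed that filter through its DicerCN arrays, so its call there is no sign of stability. The intensity trend gave 8 of them. The neural retina level, and leaving out control replicate 4 and DicerCN replicate 5 together, each gave 8, of which 7 were among the 9. No alternative gave a lower member. When limma was fitted and adjusted over all 35557 probe sets, the members Ccng1 (adjusted p = 0.0569) and Polk (0.0841) did not pass. Nor did the further target Bbc3 (0.0662). With the macrophage level as a covariate 1 member was higher, 2 other pathway genes were higher and 1 lower, and 73 and 198 of all genes were higher and lower; the retina level left 517 of all genes lower. The median SE was larger with each covariate. Leaving out 1 array gave 6 to 9 higher members, 4 to 9 higher and 2 to 4 lower other pathway genes, and 303 to 503 higher and 481 to 840 lower genes in all, the fewest mostly without control replicate 1. The cause of these shifts was not tested.

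Same-numbered arrays did not deviate together (correlations of -0.09 to 0.19, best with its own number in 1 of 5), so the replicate block is only an alternative. With that block 8 members, 9 and 5 other pathway genes, and 471 and 629 of all genes were higher and lower, and Polk lost its call.

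Signs changed only in 11 genes that were not called, and the cause was not tested. With the macrophage level Trp73 stood at 0.06, Plk2 at -0.40, Sulf2 at 0.07, Tap1 at 0.00 (a change just under 0) and Pmaip1 at -0.02. The retina level gave Mdm4 -0.03, Fas -0.07, Perp 0.20, Gadd45a -0.17 and Dcxr 0.01, and array weights gave Sulf2 0.08. Without control replicate 4 and DicerCN replicate 5 Mdm4 stood at -0.03, Fas at -0.06, Perp at 0.11 and Gadd45a at -0.02. Leaving out 1 array gave -0.06 to 0.04 for Trp73, -0.06 to 0.08 for Mdm4, -0.07 to 0.06 for Fas, -0.14 to 0.13 for Perp, 0.01 to 0.46 for Gadd45a, -0.16 to 0.01 for Sesn1, -0.27 to 0.15 for Sulf2 and -0.05 to 0.05 for Pmaip1. Control signals of Fas and Eda2r lay in the lowest 25% of genes, which limits what can be seen of them.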
